A study of Arabidopsis thaliana with 12 samples.

Results

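*MYC2* and 6 genes known as outputs of jasmonate, wounding or darkness were followed across 4 genotypes of *Arabidopsis thaliana* leaves: *VSP1*, *VSP2*, *CORI3*, *CLH1*, *TAT3* and *DIN11*. They are 7 of the 18884 genes in the deposited count table, taken by their locus codes, and each of the 7 passed the filter on low counts. The genes were listed with results of these data known, among them the measured *VSP1* rise in the eds1-2 line, and *DIN11* was selected on its measured rise in the sid2-1 line. *DIN11* is described without a test except in the eds1-2 line against Col-0, and the other 6 genes were tested in all 6 comparisons between genotypes.

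The study measured what a tagged TPR1, a corepressor of the TOPLESS family, does to leaf transcripts, and how much of that depends on salicylic acid synthesis and on EDS1. Polyadenylated RNA was taken from untreated 5-week-old plants grown on soil with 10 h of light a day at 22 °C and 60% relative humidity, with 3 libraries for each genotype. The TPR1-GFP sid2-1 plants, called the sid2-1 line below, carry the pTPR1:TPR1-GFP transgene and the sid2-1 mutation of *ICS1*, the isochorismate synthase gene of salicylic acid synthesis. The TPR1-GFP eds1-2 plants, called the eds1-2 line, carry the same transgene and the eds1-2 mutation of *EDS1*, which encodes a lipase-like protein of immune signalling. TPR1-GFP plants carry the transgene alone, and Col-0 is the wild-type accession without it. The label names the promoter of *TPR1* itself as the one that drives the transgene, and it does not say how many independent transgenic lines were used. Mutants without the transgene were not analysed here, so an effect of either mutation alone cannot be told apart from its effect in the presence of TPR1-GFP.

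MYC2 is a basic helix-loop-helix transcription factor through which jasmonate acts in wound and insect responses. JAZ proteins hold it inactive and recruit TOPLESS-type corepressors through the adaptor NINJA, and the receptor COI1 targets JAZ proteins for breakdown when jasmonate is present. Jasmonate output is commonly divided into a MYC branch of wound and storage genes and an ERF branch of defensin genes, and salicylic acid signalling is known to oppose both in Arabidopsis. *VSP1* and *VSP2* encode vegetative storage proteins with acid phosphatase activity, *CORI3* a cystine lyase, *CLH1* a chlorophyllase and *TAT3* a tyrosine aminotransferase, all known to be induced by jasmonate. *DIN11* encodes a dioxygenase of the 2-oxoglutarate-dependent family first described as induced in the dark.

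The sequences just before the annotated start of transcription are shown for *VSP1* and *VSP2*, the neighbouring pair with the largest tested changes in both mutant lines against TPR1-GFP, and for *DIN11*, the gene that was high in a single line. They are from the RefSeq annotation of TAIR10.1, are 250 bases long, read 5′ to 3′ on the strand of the gene and end at the base before the start. Capitals mark a hexamer that MYC2 is known to bind.
VSP1, chr5:8509202-8509451, minus strand: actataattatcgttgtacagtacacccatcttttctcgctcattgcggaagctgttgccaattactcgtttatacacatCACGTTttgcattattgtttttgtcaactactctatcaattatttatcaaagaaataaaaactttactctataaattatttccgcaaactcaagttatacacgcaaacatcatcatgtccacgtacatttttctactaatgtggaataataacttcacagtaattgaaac
VSP2, chr5:8502225-8502474, minus strand: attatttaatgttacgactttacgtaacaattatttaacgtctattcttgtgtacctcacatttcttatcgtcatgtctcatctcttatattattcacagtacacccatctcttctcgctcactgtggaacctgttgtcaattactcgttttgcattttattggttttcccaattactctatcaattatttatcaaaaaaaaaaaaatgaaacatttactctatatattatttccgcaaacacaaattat
DIN11, chr3:18393497-18393746, plus strand: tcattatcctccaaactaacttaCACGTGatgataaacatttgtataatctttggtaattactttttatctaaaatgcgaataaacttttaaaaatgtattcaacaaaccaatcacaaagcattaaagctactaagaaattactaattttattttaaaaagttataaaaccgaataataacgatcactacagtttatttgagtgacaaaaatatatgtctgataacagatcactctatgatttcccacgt

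The words CACGTG (G-box), AACGTG and CACATG were searched on both strands in such windows of all 7 genes. The G-box was found in the *DIN11* window alone, 227 bases before the start, and 6.49% of the 27443 nuclear gene windows of this length hold it. AACGTG, read as CACGTT on the gene strand, was found 170 bases before the start of *VSP1* and 115 bases before the start of *MYC2*, and 7.54% of windows hold it. CACATG was found 55 bases before the start of *CLH1* and, as CATGTG, 111 bases before the start of *TAT3*, and 11.1% of windows hold it. The windows of *VSP2* and *CORI3* held none of these letters. The *VSP1* and *VSP2* windows could be aligned over 146 base pairs of which 131 were identical (89.7%), from base 233 to base 73 before the start of *VSP1* and from base 154 to base 1 before the start of *VSP2*. The hexamer of *VSP1* touches a stretch of 15 bases that has no counterpart in *VSP2*.

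Library totals ran from 19628974 to 32018583 counts, levels are counts per 1e+06 counts after TMM scaling (CPM), and a gene is called where its adjusted p from edgeR's quasi-likelihood test over 18877 genes is under 0.05. Independent experiments are mentioned in the study design, but no label links a library to one of them, and the p-values therefore cover only the variation seen among these 12 libraries. *TPR1* counts, which pool the native gene and the transgene, were 776 to 1305 CPM in the sid2-1 line, 990 to 1327 CPM in the eds1-2 line, 1539 to 1748 CPM in TPR1-GFP and 68.3 to 74.1 CPM in Col-0. Against TPR1-GFP they were lower in the sid2-1 line (log2 change −0.57, adjusted p = 0.0433, edgeR) and the eds1-2 line (−0.54, adjusted p = 0.0199). In comparisons with TPR1-GFP, an effect of either mutation cannot be told apart from that of less *TPR1* transcript. *EDS1A* had 13.5 to 16 CPM in the eds1-2 line, against 130 to 173 CPM in TPR1-GFP. *ICS1* had 132 to 157 CPM in the sid2-1 line, against 208 to 368 CPM in TPR1-GFP, which is no check of the genotype, because sid2-1 is a point mutation that need not lower the transcript. The leaf markers *RBCS1A*, *LHCB1.2* and *RCA* summed to 19900 CPM or more in every library, whereas the floral organ gene *AG* stayed at or below 2.26 CPM in every library.

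*MYC2* transcript passed the test in 0 of the 6 comparisons by edgeR's quasi-likelihood test, in 0 at an unadjusted p under 0.05 and in 0 by DESeq2, while *VSP1*, *VSP2*, *CORI3* and *CLH1* were higher in both mutant lines than in TPR1-GFP. *TAT3* took the other course, with its lowest mean in the eds1-2 line and its highest in TPR1-GFP. The eds1-2 line had the highest mean for *VSP1*, *VSP2*, *CORI3* and *CLH1*, the sid2-1 line for *DIN11* and TPR1-GFP for *TAT3*. For *MYC2* the means of the eds1-2 line (79.35 CPM) and the sid2-1 line (77.97 CPM) were close, and the libraries of all genotypes overlapped. In leaf RNA as sampled here, fewer cells of a type and less RNA per cell cannot be told apart.

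**Figure D1:**
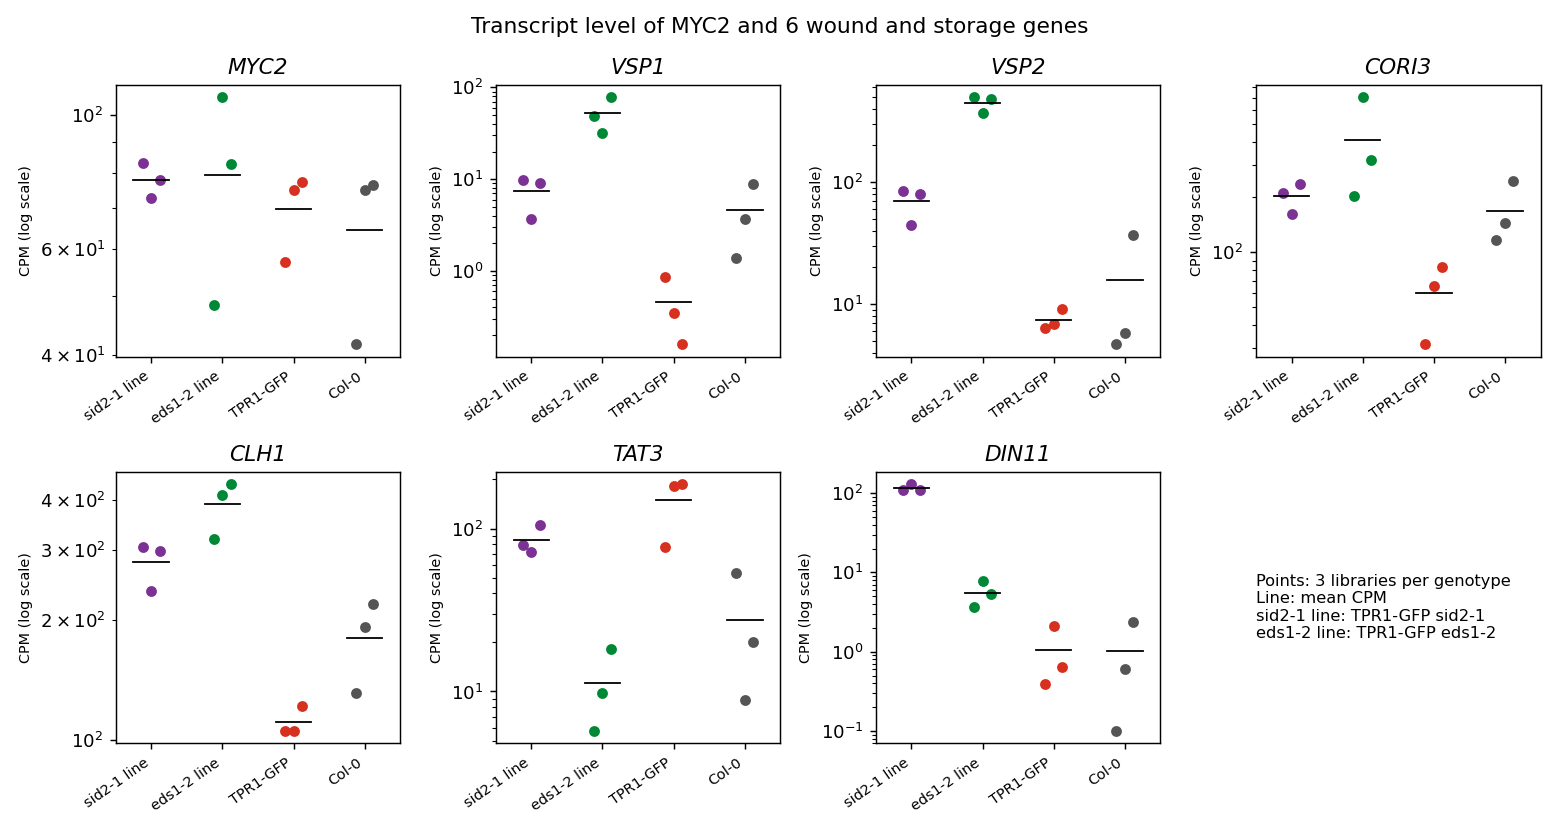
Level of each of the 7 genes in every library, in CPM on a log axis, by genotype from the sid2-1 line to Col-0, with points for libraries and a line for the mean of 3. *MYC2* libraries lie between 41.7 and 107 CPM and overlap between all genotypes, whereas *VSP2* libraries of the eds1-2 line lie between 369 and 496 CPM, above every other library.

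*MYC2* (AT1G32640) lies on the minus strand of chromosome 1 at 11798119 to 11801407. It had 83.3, 72.7 and 77.9 CPM in the sid2-1 line, 48.4, 107 and 82.8 CPM in the eds1-2 line and 57.0, 75.0 and 77.4 CPM in TPR1-GFP. Col-0 had 41.7, 75.0 and 76.4 CPM. The 4 groups overlapped, and the lowest library of the eds1-2 line, TPR1-GFP and Col-0 was replicate 1 each time. The *MYC2* log2 change was 0.16 in the sid2-1 line against TPR1-GFP (SE 0.274, adjusted p = 0.72, edgeR), 0.19 in the eds1-2 line against TPR1-GFP (SE 0.275, adjusted p = 0.594) and 0.12 in TPR1-GFP against Col-0 (SE 0.275, adjusted p = 0.741). Against Col-0 it was 0.28 in the sid2-1 line (adjusted p = 0.44, edgeR) and 0.30 in the eds1-2 line (adjusted p = 0.482), and between the sid2-1 and eds1-2 lines it was −0.03 (adjusted p = 0.952). The sign of 3 of these 6 changes turned in some settings. A p above the threshold does not show that *MYC2* transcript was equal between the genotypes.

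The closest relatives of *MYC2* encode further MYC factors that share its binding sites and its JAZ repressors. *MYC4* had a mean of 22.5 ± 2.91 CPM in the sid2-1 line, 29 ± 0.847 CPM in the eds1-2 line, 38.8 ± 2.04 CPM in TPR1-GFP and 20.3 ± 3.02 CPM in Col-0 (SD, n = 3 each). It was lower in both mutant lines than in TPR1-GFP, by a log2 change of −0.79 in the sid2-1 line (SE 0.116, adjusted p = 0.00196, edgeR) and −0.42 in the eds1-2 line (SE 0.115, adjusted p = 0.00905), and higher in TPR1-GFP than in Col-0 by 0.94 (SE 0.117, adjusted p = 6.55e-05). *MYC3* was lower in the eds1-2 line than in TPR1-GFP by a log2 change of −0.36 (adjusted p = 0.0161, edgeR), a call that 16 of 19 other settings gave, and higher in TPR1-GFP than in Col-0 by 0.42 (adjusted p = 0.00744). *MYC5*, a gene better known from stamens, was near the lower end of detection with 6.07, 3.39 and 6.77 CPM in the eds1-2 line, against 1.11, 0.516 and 0.756 CPM in TPR1-GFP, a log2 change of 2.77 (SE 0.365, adjusted p = 9.35e-05, edgeR). The floral gene *AG* was also higher in the eds1-2 line, at 2.00 to 2.26 CPM against 0.0796 to 0.287 CPM in TPR1-GFP, while the floral markers *AP3* and *PI* were not analysed here. The part of floral tissue in the *MYC5* result was not tested.

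The vegetative storage protein genes had the largest tested changes of the 7 genes in both mutant lines against TPR1-GFP. *VSP1* (AT5G24780) lies at 8507590 to 8509201 and *VSP2* (AT5G24770) at 8500468 to 8502224, both on the minus strand of chromosome 5 and 5.4 kb apart. *VSP1* had 9.75, 3.68 and 9.02 CPM in the sid2-1 line, 48.6, 32.2 and 78.1 CPM in the eds1-2 line and 0.863, 0.344 and 0.159 CPM in TPR1-GFP. Col-0 had 1.40, 3.68 and 8.81 CPM. The eds1-2 libraries stood above all others and the TPR1-GFP libraries below all others, where they rest on 24, 12 and 4 counts. *VSP1* rose 16.2-fold in the sid2-1 line against TPR1-GFP (log2 change 4.02, SE 0.765, adjusted p = 0.00704, edgeR) and 115-fold in the eds1-2 line against TPR1-GFP (log2 change 6.84, SE 0.749, adjusted p = 3.58e-05). The second rise was known when the genes were listed, so its p is no independent support. Without TPR1-GFP replicate 1 those log2 changes were 4.79 and 7.62. *VSP1* fell by 3.36 on the log2 scale in TPR1-GFP against Col-0 (SE 0.792, adjusted p = 0.00421, edgeR), which became −2.47 without Col-0 replicate 3 and −4.13 without TPR1-GFP replicate 1.

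*VSP2* had 83.9, 44.8 and 80.4 CPM in the sid2-1 line, 496, 369 and 479 CPM in the eds1-2 line and 6.43, 6.88 and 9.08 CPM in TPR1-GFP. Col-0 had 4.70, 5.81 and 37.0 CPM. Both mutant lines stood above TPR1-GFP and Col-0 in every library, and 1 Col-0 library, replicate 3, stood apart from the other two. *VSP2* rose 9.36-fold in the sid2-1 line against TPR1-GFP (log2 change 3.23, SE 0.649, adjusted p = 0.00883, edgeR) and 60.1-fold in the eds1-2 line against TPR1-GFP (log2 change 5.91, SE 0.723, adjusted p = 7.09e-05). The log2 change of *VSP2* in TPR1-GFP against Col-0 was −1.10 (SE 0.626, adjusted p = 0.157, edgeR) and turned to 0.50 without Col-0 replicate 3 (adjusted p = 0.187), so unlike *VSP1* it was not called lower there. Without Col-0 replicate 1 the *VSP2* value was −1.53 (adjusted p = 0.0344, edgeR).

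Against Col-0 the eds1-2 line had more of both storage protein transcripts, with a log2 change of 3.48 for *VSP1* (SE 0.581, adjusted p = 0.00226, edgeR) and 4.81 for *VSP2* (SE 0.683, adjusted p = 0.00089). These were 4.38 and 6.41 without Col-0 replicate 3. In the sid2-1 line against Col-0, *VSP2* was higher by 2.12 (SE 0.616, adjusted p = 0.0177, edgeR), or 3.73 without Col-0 replicate 3, and *VSP1* had a log2 change of 0.66 that did not pass (SE 0.580, adjusted p = 0.379). The *VSP2* call against Col-0 was lost without sid2-1 replicate 1 (adjusted p = 0.053, edgeR) and with only those groups in the model (adjusted p = 0.0831). Between the mutant lines both genes were lower in the sid2-1 line than in the eds1-2 line, *VSP1* by a log2 change of −2.83 (SE 0.555, adjusted p = 0.00276, edgeR) and *VSP2* by −2.69 (SE 0.615, adjusted p = 0.00651). The *VSP1* p-values of the eds1-2 line against Col-0 and between the mutant lines rest on the same eds1-2 libraries. The *VSP1* rise in those libraries was known when the genes were listed, so these p-values are no independent support.

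The coding sequences of *VSP1* and *VSP2* are 89.5% identical with a longest shared run of 54 bases, so reads can be assigned to either copy and the division between them is uncertain. *VSP1* took 10.4, 7.57 and 10.09% of the counts of the pair in the sid2-1 line, 8.92, 8.02 and 14.01% in the eds1-2 line, 11.8, 4.76 and 1.72% in TPR1-GFP and 22.95, 38.7 and 19.2% in Col-0. Every library with the transgene was below every Col-0 library. The 95% Wilson interval of the highest share with the transgene, eds1-2 replicate 3, was 13.4 to 14.7%, the interval of TPR1-GFP replicate 1, at 203 counts, was 8.07 to 16.99%, and that of the lowest Col-0 share was 17.1 to 21.6%. Such intervals cover counting error only. The mean share was 6.1 ± 5.18% in TPR1-GFP and 27 ± 10.4% in Col-0 (SD, n = 3 each), and the two-sided exact permutation p was 0.1, the smallest that 3 against 3 libraries can give (0.2 adjusted over 6 comparisons). The same exact p of 0.1 held for the sid2-1 line, at a mean of 9.36 ± 1.55%, and the eds1-2 line, at 10.3 ± 3.23%, each against Col-0 (SD, n = 3). Between the lines with the transgene the exact permutation p was 0.4 for the sid2-1 line against TPR1-GFP, 0.3 for the eds1-2 line against TPR1-GFP and 0.8 for the sid2-1 line against the eds1-2 line. The summed level of the pair was 77.2 ± 24.9 CPM in the sid2-1 line, 501 ± 86.6 CPM in the eds1-2 line, 7.92 ± 1.14 CPM in TPR1-GFP and 20.5 ± 22.0 CPM in Col-0 (SD, n = 3 each). The Col-0 sums were 6.1, 9.49 and 45.8 CPM by library, so those of TPR1-GFP, at 7.22 to 9.24 CPM, lie inside the range of Col-0.

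**Figure D2:**
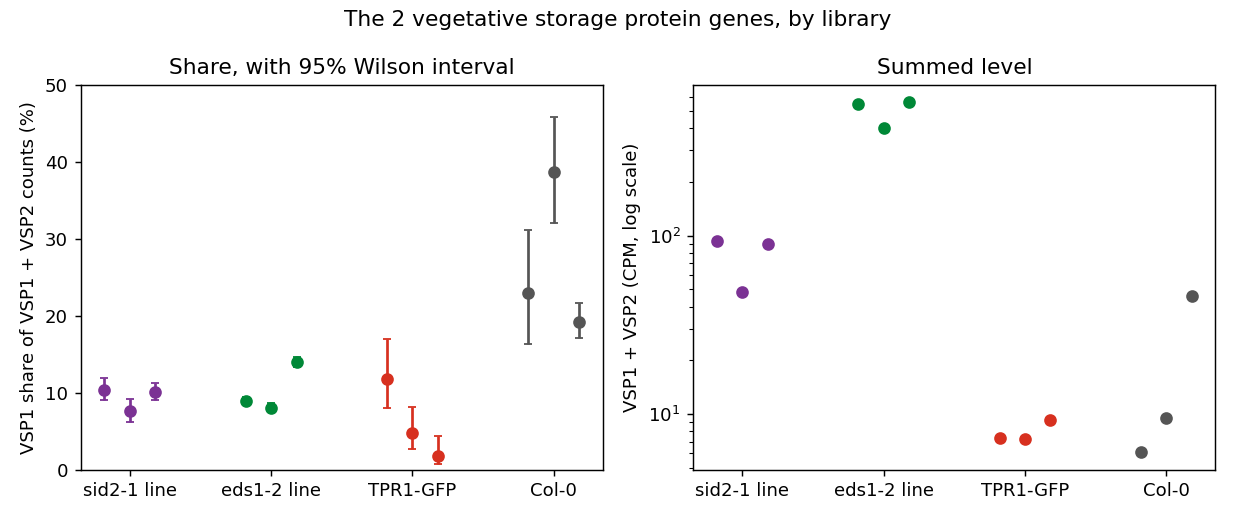
Share of *VSP1* in the counts of the *VSP1* and *VSP2* pair by library, with 95% Wilson intervals (left, %), and the summed level of the pair in CPM on a log axis (right), by genotype. The 9 libraries with the transgene have shares of 1.72 to 14.01% and lie below the 3 Col-0 libraries at 19.2 to 38.7%, while the summed levels of TPR1-GFP lie inside the range of Col-0 and those of both mutant lines lie above it.

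*CORI3* and *CLH1*, both first described as induced by the bacterial jasmonate mimic coronatine, were higher in both mutant lines than in TPR1-GFP, as the storage protein genes were, with smaller log2 changes in those comparisons. *CLH1* (AT1G19670), on the minus strand of chromosome 1 at 6803486 to 6805092, had 305, 237 and 298 CPM in the sid2-1 line, 320, 412 and 439 CPM in the eds1-2 line and 106, 106 and 122 CPM in TPR1-GFP. Col-0 had 131, 192 and 219 CPM. No group overlapped with another, in the order eds1-2 line, sid2-1 line, Col-0, TPR1-GFP. *CLH1* rose 2.52-fold in the sid2-1 line against TPR1-GFP (log2 change 1.33, SE 0.186, adjusted p = 0.00148, edgeR) and 3.52-fold in the eds1-2 line against TPR1-GFP (log2 change 1.81, SE 0.188, adjusted p = 2.17e-05), and its log2 change was −0.70 in TPR1-GFP against Col-0 (SE 0.184, adjusted p = 0.00693). Against Col-0 it was higher in the sid2-1 line by 0.63 (SE 0.184, adjusted p = 0.0171, edgeR), lost without sid2-1 replicate 1 (adjusted p = 0.0685), and in the eds1-2 line by 1.11 (SE 0.185, adjusted p = 0.00201). Its difference between the sid2-1 and eds1-2 lines, a log2 change of −0.48, was not called (SE 0.183, adjusted p = 0.061, edgeR), although 6 of 18 other settings called it, among them DESeq2 (adjusted p = 0.0291) and the model with those groups only (adjusted p = 0.0375).

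The relative *CLH2*, for a further chlorophyllase, differed from *CLH1* in its course. It was higher in TPR1-GFP than in Col-0 by a log2 change of 0.78 (SE 0.179, adjusted p = 0.00327, edgeR), where *CLH1* was lower, and its log2 changes in the sid2-1 and eds1-2 lines against TPR1-GFP, −0.11 and −0.34, did not pass (adjusted p = 0.697 and 0.125).

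*CORI3* (AT4G23600) lies on the plus strand of chromosome 4 at 12310379 to 12313212. It had 211, 162 and 237 CPM in the sid2-1 line, 204, 704 and 319 CPM in the eds1-2 line and 31.4, 65.3 and 82.6 CPM in TPR1-GFP. Col-0 had 117, 145 and 244 CPM. The TPR1-GFP libraries stood below all others, the other 3 groups overlapped, and eds1-2 replicate 2 stood far above its group. *CORI3* rose 6.85-fold in the eds1-2 line against TPR1-GFP (log2 change 2.78, SE 0.483, adjusted p = 0.000671, edgeR), with a log2 change of 2.13 without eds1-2 replicate 2. Its rise of 1.77 in the sid2-1 line against TPR1-GFP (SE 0.467, adjusted p = 0.0271, edgeR) was lost without TPR1-GFP replicate 1 (adjusted p = 0.0627) or replicate 2 (0.0821), and without sid2-1 replicate 1 (0.0672), replicate 2 (0.0506) or replicate 3 (0.071). The *CORI3* change of −1.50 in TPR1-GFP against Col-0 (SE 0.464, adjusted p = 0.0176, edgeR) was lost without Col-0 replicate 3 (adjusted p = 0.0752) and without TPR1-GFP replicate 1 (adjusted p = 0.0609).

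Neither mutant line differed from Col-0 in *CORI3* by the test, with log2 changes of 0.27 in the sid2-1 line (adjusted p = 0.657, edgeR) and 1.28 in the eds1-2 line (adjusted p = 0.0791, and 0.036 without eds1-2 replicate 1). The sid2-1 line against the eds1-2 line had −1.01 (adjusted p = 0.108, edgeR, and 0.0496 without eds1-2 replicate 1). The neighbouring gene AT4G23590, whose coding sequence is 79.3% identical to that of *CORI3*, was not analysed here.

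The myrosinase genes *TGG1* and *TGG2* were used as markers of myrosin cells, the idioblasts that hold myrosinases. Both genes were higher in the eds1-2 line than in TPR1-GFP and lower in TPR1-GFP than in Col-0, as *VSP1*, *CORI3* and *CLH1* were. Transcripts of these genes alone do not show a change in the number of such cells. Their summed level was 3536 to 4908 CPM in the sid2-1 line, 5862 to 9041 CPM in the eds1-2 line, 1877 to 2639 CPM in TPR1-GFP and 3824 to 7956 CPM in Col-0, and both genes were detected in every library. *TGG2* was higher in the eds1-2 line than in TPR1-GFP by a log2 change of 2.17 and *TGG1* by 1.5 (adjusted p = 0.000496 and 0.000194, edgeR). That of *TGG2* is larger than the 1.81 of *CLH1*. *TGG1* was higher in the sid2-1 line than in TPR1-GFP by 0.77 (adjusted p = 0.0323, edgeR) and *TGG2* had 1.04 (adjusted p = 0.0635). Against Col-0 neither was called, with *TGG1* at −0.36 and *TGG2* at −0.72 in the sid2-1 line and 0.37 and 0.41 in the eds1-2 line. The 3 leaf markers summed to 24220 to 26090 CPM in the sid2-1 line, 33610 to 41280 CPM in the eds1-2 line, 19900 to 23930 CPM in TPR1-GFP and 39680 to 48510 CPM in Col-0. They did not move alike: *RCA* had a mean of 6575 CPM in TPR1-GFP and 7623 CPM in Col-0. *RBCS1A* had 9822 and 20170 CPM there, and *LHCB1.2* 5060 and 15240 CPM. The 5 guard cell and epidermis markers summed to 148 to 189 CPM in the sid2-1 line, 147 to 239 CPM in the eds1-2 line, 124 to 152 CPM in TPR1-GFP and 184 to 286 CPM in Col-0. Of these 5, 2 were called higher and 0 lower in the eds1-2 line against TPR1-GFP. In TPR1-GFP against Col-0, 0 were higher and 3 lower. *FAMA*, called in neither, had means of 24.4 CPM in the sid2-1 line, 23.9 CPM in the eds1-2 line, 22.4 CPM in TPR1-GFP and 20.4 CPM in Col-0. The 3 vascular markers summed to 302 to 355 CPM in the sid2-1 line, 412 to 511 CPM in the eds1-2 line, 364 to 441 CPM in TPR1-GFP and 229 to 337 CPM in Col-0. In the eds1-2 line against TPR1-GFP, 2 of them were called higher and 1 lower, beside the same 52.9% of all genes tested. Mean *SUC2* was 355 CPM against 218 CPM and mean *APL* 22.2 CPM against 15.5 CPM, while mean *SWEET11* was 75.2 CPM against 170 CPM. None of these markers was at 0 in any library, and the part of cell composition in the results for *VSP1*, *VSP2*, *CORI3* and *CLH1* was not tested.

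*TAT3* (AT2G24850), on the minus strand of chromosome 2 at 10582074 to 10585216, encodes an enzyme that starts the breakdown of tyrosine and is known as a jasmonate marker. It had 79.2, 71.6 and 105 CPM in the sid2-1 line, 5.73, 9.80 and 18.4 CPM in the eds1-2 line and 77.3, 184 and 188 CPM in TPR1-GFP. Col-0 had 53.2, 8.85 and 20.04 CPM. The eds1-2 and Col-0 libraries overlapped at the low end, and the sid2-1 and TPR1-GFP libraries overlapped at the high end. *TAT3* was 13.2-fold lower in the eds1-2 line than in TPR1-GFP (log2 change −3.73, SE 0.634, adjusted p = 0.000584, edgeR), and higher in TPR1-GFP than in Col-0 by a log2 change of 2.45 (SE 0.593, adjusted p = 0.00487). Without Col-0 replicate 1, at 53.2 CPM the highest of its genotype, the second value was 3.36. The sid2-1 line kept no called difference from TPR1-GFP (log2 change −0.81, SE 0.561, adjusted p = 0.336, edgeR) and was above the eds1-2 line by a log2 change of 2.92 (SE 0.617, adjusted p = 0.00416).

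The *TAT3* difference of 1.64 between the sid2-1 line and Col-0 (SE 0.581, adjusted p = 0.0405, edgeR) was called in 8 of 18 other settings, was 2.55 without Col-0 replicate 1, and was lost with the replicate number as a block (1.65, adjusted p = 0.0645), with only those groups in the model (0.0762), without Col-0 replicate 2 (adjusted p = 0.0942) or replicate 3 (0.124), and without sid2-1 replicate 1 (0.0736), replicate 2 (0.0614) or replicate 3 (0.101). It was also lost without TPR1-GFP replicate 2 (adjusted p = 0.0508, edgeR) or replicate 3 (0.0507) and without eds1-2 replicate 2 (0.0553). The eds1-2 line against Col-0 had a *TAT3* log2 change of −1.27 that did not pass (SE 0.599, adjusted p = 0.168, edgeR). Thus *TAT3* was called in the direction opposite to *VSP1*, *CORI3* and *CLH1* both in TPR1-GFP against Col-0 and in the eds1-2 line against TPR1-GFP.

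*DIN11* (AT3G49620) lies on the plus strand of chromosome 3 at 18393747 to 18397050. It had 109, 130 and 111 CPM in the sid2-1 line, 3.61, 7.75 and 5.34 CPM in the eds1-2 line and 0.395, 2.09 and 0.637 CPM in TPR1-GFP. Col-0 had 0.1, 0.596 and 2.34 CPM. The rise in the sid2-1 line, which was the ground for choosing *DIN11*, was present in all 3 libraries with 2163, 3157 and 3271 counts, against 11, 73 and 16 counts in TPR1-GFP and 2, 12 and 58 counts in Col-0. As a description, its log2 change was 6.72 in the sid2-1 line against TPR1-GFP, 6.75 against Col-0 and 4.38 against the eds1-2 line. It was 2.34 in the eds1-2 line against TPR1-GFP and 0.03 in TPR1-GFP against Col-0, where the libraries overlapped. Without TPR1-GFP replicate 2 the values against TPR1-GFP were 7.82 in the sid2-1 line and 3.44 in the eds1-2 line, and without Col-0 replicate 3 those against Col-0 were 8.36 in the sid2-1 line and 1.65 in TPR1-GFP. The value of TPR1-GFP against Col-0 was negative in 4 of 19 other settings, down to −1.07 without TPR1-GFP replicate 2, so it has no fixed direction.

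The one *DIN11* comparison that did not bear on its choice, the eds1-2 line against Col-0, gave a rise of 2.36 on the log2 scale (SE 0.648, adjusted p = 0.0282, edgeR) with all 3 eds1-2 libraries above all 3 Col-0 libraries. Without Col-0 replicate 3 that change was 3.98, and the call was lost without Col-0 replicate 2 (adjusted p = 0.0912, edgeR), without eds1-2 replicate 2 (0.104) or replicate 3 (0.0616) and with only those groups in the model (0.0926). *DIN11* lies 635.6 kb from *EDS1A* on chromosome 3, so an effect of the mutation and of sequence inherited with it cannot be told apart in the eds1-2 line. The neighbour AT3G49630, with a coding sequence 88.3% identical to that of *DIN11* and a shared run of 80 bases, can exchange reads with it and was not analysed here.

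**Figure D3:**
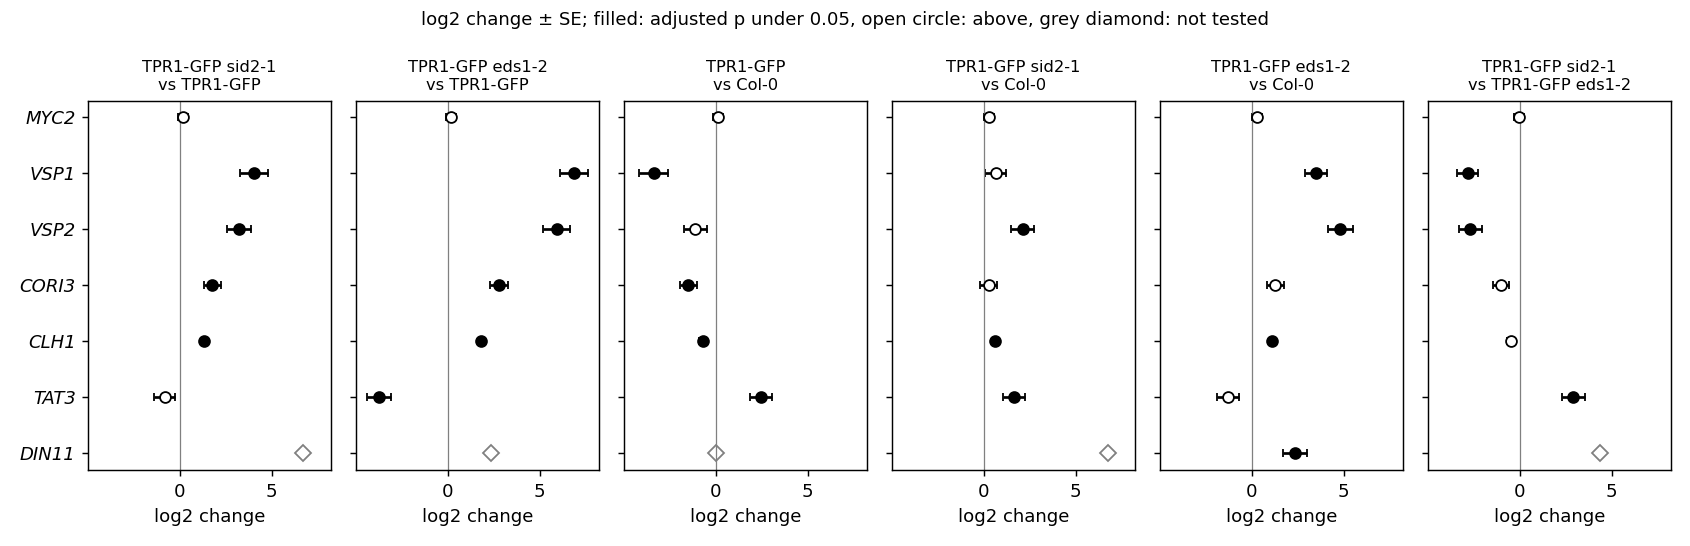
Log2 change of the 7 genes in the 6 comparisons, with the SE as bars. Filled circles have an adjusted p under 0.05, open circles do not, and diamonds for *DIN11* were not tested. *MYC2* lies between −0.03 and 0.30 throughout, and *TAT3* lies on the other side of 0 from *VSP1*, *VSP2*, *CORI3* and *CLH1* in the eds1-2 line against TPR1-GFP.

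Counted over the genes that were tested, 4 of 6 were called higher and 0 lower in the sid2-1 line against TPR1-GFP. There 16.8% of all genes tested were called (9.7% higher and 7.14% lower). That count of members was 3 or 4 in the other settings. The genes were listed with results of these data known, so this count and those of the other comparisons are no independent support. In the eds1-2 line against TPR1-GFP, 4 of 6 were higher and 1 lower, against 52.9% of all genes called (25.2% higher and 27.7% lower). *VSP1* is among these higher genes, and its rise in that line was known when the genes were listed. The count is therefore partly fixed by the choice of genes and is no independent support. In TPR1-GFP against Col-0, 1 of 6 was higher and 3 were lower, against 53.9% of all genes (27.5% higher and 26.4% lower), so a count of 4 called genes of 6 is close to that background. In the sid2-1 line against Col-0, 3 of 6 were higher and 0 lower, against 42.1% of all genes (22.1% higher and 19.9% lower). In the eds1-2 line against Col-0, 4 of 7 were higher and 0 lower, against 17.5% of all genes (9.48% higher and 8.02% lower), with *VSP1* again among the higher genes. In the sid2-1 line against the eds1-2 line, 1 of 6 was higher and 2 lower, against 34.4% of all genes (19.5% higher and 14.9% lower).

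The median log2 change of the tested genes was 1.55 in the sid2-1 line and 2.29 in the eds1-2 line, each against TPR1-GFP, and −0.90 in TPR1-GFP against Col-0. It was 0.64 in the sid2-1 line and 1.28 in the eds1-2 line, each against Col-0, and −0.74 between the sid2-1 and eds1-2 lines. Over all genes tested the median ran from −0.05 to 0.01 in these comparisons. The medians that involve the eds1-2 line include *VSP1*, whose rise in that line was known when the genes were listed. As with the counts, the medians are no independent support. The comparisons share libraries, so their counts are not independent of each other.

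Per 1000 coding bases, a rough scale for setting genes side by side, the eds1-2 line had 561 CPM of *VSP2*, 400 CPM of *CLH1*, 322 CPM of *CORI3*, 65.2 CPM of *VSP1*, 42.4 CPM of *MYC2*, 8.44 CPM of *TAT3* and 5.18 CPM of *DIN11*. The scale leaves out the length of untranslated sequence, which reads can also cover and which can differ between genes. TPR1-GFP had 114 CPM of *CLH1*, 112 CPM of *TAT3*, 47.1 CPM of *CORI3*, 37.3 CPM of *MYC2*, 9.35 CPM of *VSP2*, 0.969 CPM of *DIN11* and 0.560 CPM of *VSP1* per 1000 coding bases. *VSP2* had the highest mean level of the 7 in the eds1-2 line, while *CLH1* and *TAT3* were close in TPR1-GFP, where the *TAT3* libraries spread from 77.3 to 188 CPM before scaling by length. The mean *MYC2* level per 1000 coding bases was 42.4 CPM in the eds1-2 line, 41.65 CPM in the sid2-1 line and 34.4 CPM in Col-0, and no *MYC2* difference between genotypes was called.

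Among the 3 libraries of a genotype, *MYC2* shared its highest and its lowest library with *VSP2* and with *CORI3* in 3 of 4 genotypes each, with *VSP1*, *CLH1* and *DIN11* in 2 of 4 each and with *TAT3* in 1 of 4. These orders are given as a description, without a test. How many of all genes share such an order was not counted, so the counts do not show that these genes vary together more than others. *VSP1* and *VSP2* shared both in 2 of 4, and *TAT3* and *VSP1* in 0 of 4. In Col-0 replicate 3 was highest and replicate 1 lowest for *MYC2*, *VSP1*, *VSP2*, *CORI3*, *CLH1* and *DIN11*, while *TAT3* was highest in replicate 1.

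Genes of the JAZ and MYC machinery and of related pathways were read from lists of known components, and each count stands beside the share of all genes tested that was called. That share was 16.8% in the sid2-1 line against TPR1-GFP, 52.9% in the eds1-2 line against TPR1-GFP and 53.9% in TPR1-GFP against Col-0, so shares such as 3 of 11 and 5 of 11 *JAZ* genes in the second and the last of these are not above that background. Of 10 genes of MYC relatives and partners, among them *COI1*, *NINJA* and *TPL*, 0 were higher and 2 lower in the sid2-1 line against TPR1-GFP (median log2 change −0.14), 2 were higher and 6 lower in the eds1-2 line against TPR1-GFP (median −0.35), and 6 were higher and 1 lower in TPR1-GFP against Col-0 (median 0.37). *TPL*, which encodes the corepressor TOPLESS and shares sequence with *TPR1*, had a log2 change of −1.20 in the eds1-2 line against TPR1-GFP and −0.81 in TPR1-GFP against Col-0 (adjusted p = 0.000544 and 0.00506, edgeR). Of 11 *JAZ* repressor genes, 2 were higher and 0 lower in the sid2-1 line against TPR1-GFP (median 0.56), 1 was higher and 2 lower in the eds1-2 line against TPR1-GFP (median −0.25), and 5 were higher and 0 lower in TPR1-GFP against Col-0 (median 0.44). Both *JAZ* calls of the sid2-1 line, *JAZ5* and *JAZ3*, were lost in some settings, and the count was 0 without TPR1-GFP replicate 1.

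Of 12 jasmonate synthesis genes, 4 were higher and 0 lower in the sid2-1 line against TPR1-GFP (median 0.14), and 4 were higher and 2 lower in the eds1-2 line against TPR1-GFP (median 0.37). *AOS*, which encodes allene oxide synthase at the entry of the pathway, rose in both, by log2 changes of 0.90 and 1.48 (adjusted p = 0.007 and 4.98e-05, edgeR), whereas *AOC3*, for an allene oxide cyclase, changed by −2.10 in the eds1-2 line (adjusted p = 1.06e-05). In TPR1-GFP against Col-0, 5 of the 12 were higher and 3 lower (median 0.18), with the lipoxygenase gene *LOX4* at 1.95 and *AOC3* at 1.45 (adjusted p = 5.84e-05 and 7.84e-05, edgeR). Of 6 genes of jasmonate turnover, 0 were higher and 1 lower in the sid2-1 line against TPR1-GFP (median 0.60), 1 was higher and 2 lower in the eds1-2 line against TPR1-GFP (median 0.04), and 2 were higher and 1 lower in TPR1-GFP against Col-0 (median 0.47). *JMT*, for the enzyme that methylates jasmonate, rose in the eds1-2 line against TPR1-GFP by 3.56, and *CYP94C1*, for a cytochrome that oxidises the active hormone, fell by 3.21 there (adjusted p = 0.000132 and 5.26e-06, edgeR). Without TPR1-GFP replicate 2 the calls in the sid2-1 line numbered 2 for synthesis and 0 for turnover, and the *JAZ* calls in TPR1-GFP against Col-0 numbered 3.

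*NAC019*, *NAC055* and *NAC072* encode transcription factors downstream of MYC2, of which 1 was higher in the sid2-1 line against TPR1-GFP (median 0.94), 1 was lower in the eds1-2 line against TPR1-GFP (median −1.41) and 1 was higher in TPR1-GFP against Col-0 (median −0.30). The first was *NAC055*, with a log2 change of 3.22 (adjusted p = 0.00915, edgeR), and the call in the eds1-2 line was lost without eds1-2 replicate 1. In the ERF branch, all 7 genes were higher in the sid2-1 line against TPR1-GFP (median 3.17), as few as 4 of them without TPR1-GFP replicate 3, and all 7 were higher against the eds1-2 line (median 3.48). The defensin gene *PDF1.2c* led with a log2 change of 10.28 in the sid2-1 line against TPR1-GFP (SE 0.718, adjusted p = 4.56e-05, edgeR), which was 11 without TPR1-GFP replicate 2, and its copies can exchange reads. In the eds1-2 line against TPR1-GFP, 2 of these 7 were higher and 2 lower (median −0.32), with 2 calls in all without TPR1-GFP replicate 2, and in TPR1-GFP against Col-0, 3 were higher and 0 lower (median 0.40).

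Relatives of the storage protein, aminotransferase and dark-inducible genes did not follow a single course. Of 7 acid phosphatase genes related to *VSP1* and *VSP2*, 0 were called by edgeR in the sid2-1 line against TPR1-GFP (median 0.05), with 2 at an unadjusted p under 0.05, 1 by DESeq2 and 0 or 1 in the other settings. In the eds1-2 line against TPR1-GFP, 2 of them were higher and 1 lower (median 0.05), and in TPR1-GFP against Col-0, 1 was higher and 4 lower (median −1.19). AT4G25150 had a log2 change of 1.82 in the eds1-2 line against TPR1-GFP and −1.20 in TPR1-GFP against Col-0 (adjusted p = 0.000649 and 0.00902, edgeR), the directions of *VSP1*. Of 3 aminotransferase genes related to *TAT3* and *CORI3*, 0 were called by edgeR in the sid2-1 line against TPR1-GFP (median −0.22, 0 at an unadjusted p under 0.05 and 0 by DESeq2), 1 was higher and 1 lower in the eds1-2 line against TPR1-GFP (median −0.37), and 2 were higher in TPR1-GFP against Col-0 (median 0.58). *SUR1*, a lyase gene of glucosinolate synthesis, was the leading one in TPR1-GFP against Col-0 at 0.90 (adjusted p = 0.000397, edgeR).

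Of 6 further dark-inducible *DIN* genes, all 6 were higher in the sid2-1 line against the eds1-2 line (median 2.55), with 5 or 6 called in the other settings. Against TPR1-GFP, 3 were higher in the sid2-1 line (median 1.19), as few as 1 without TPR1-GFP replicate 2, and 3 were lower in the eds1-2 line (median −0.66). *DIN1*, a senescence-associated gene, rose 15.8-fold in the sid2-1 line against TPR1-GFP (log2 change 3.98, SE 0.843, adjusted p = 0.011, edgeR). Its Col-0 libraries, at 3.65, 85.9 and 19.96 CPM, overlapped those of the sid2-1 line, at 101, 136 and 59.6 CPM, while TPR1-GFP had 4.92, 7.25 and 6.61 CPM. *DIN6*, which encodes an asparagine synthetase, was lower in the eds1-2 line than in TPR1-GFP by a log2 change of −2.74 (SE 0.798, adjusted p = 0.0135, edgeR). *DIN11* itself was higher in the eds1-2 line than in Col-0, whereas *DIN6* and *DIN10* were lower there by log2 changes of −3.93 and −1.37 (adjusted p = 0.00828 and 0.0295, edgeR). Without Col-0 replicate 2, the highest of its genotype for both, these were −2.09 and −0.67 (adjusted p = 0.00845 and 0.0776), and the *DIN10* call held in 13 of 18 other settings.

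The comparisons of the mutant lines with Col-0 and with each other gave further counts for the same lists, beside 42.1% of all genes called in the sid2-1 line against Col-0, 17.5% in the eds1-2 line against Col-0 and 34.4% in the sid2-1 line against the eds1-2 line. In the sid2-1 line against Col-0, 5 *JAZ* genes were higher and 0 lower (median 0.59), 5 jasmonate synthesis genes were higher and 2 lower (median 0.39), and 4 turnover genes were higher and 0 lower (median 1.28). All 7 ERF branch genes (median 3.76), 4 dark-inducible genes (median 1.14), 2 aminotransferase relatives (median 0.37) and 2 NAC genes (median 2.31) were higher there. Of the MYC relatives and partners 2 were higher and 1 lower (median 0.12), and of the acid phosphatase relatives 1 was higher and 2 were lower (median −0.44), with 1 call in all without sid2-1 replicate 1.

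In the eds1-2 line against Col-0, 4 *JAZ* genes were higher and 0 lower (median 0.25), 4 synthesis genes were higher and 1 lower (median 0.12), and 1 turnover gene, *JMT*, was higher (median 0.19). With only those groups in the model the *JAZ* and synthesis calls numbered 2 each. Of the MYC relatives and partners 2 were higher and 1 lower (median 0.06), of the acid phosphatase relatives 1 was higher and 2 were lower (median −0.0049), and *SUR1* was the 1 aminotransferase relative called, higher by 0.54 (adjusted p = 0.0279, edgeR) and called in 13 of 18 other settings. Of the ERF branch genes 0 were called by edgeR (median 0.41), with 2 at an unadjusted p under 0.05, 1 by DESeq2 and 0 to 2 in the other settings. Of the NAC genes 0 were called by edgeR (median 0.08), with 1 at an unadjusted p under 0.05, 1 by DESeq2 and 0 or 1 in the other settings.

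In the sid2-1 line against the eds1-2 line, 3 *JAZ* genes were higher and 0 lower (median 0.45), 2 synthesis genes were higher and 3 lower (median −0.11), 3 turnover genes were higher and 1 lower (median 1.08), and 2 NAC genes were higher (median 2.23). Of the MYC relatives and partners 2 were higher and 2 lower (median 0.15), and AT1G04040 was the 1 acid phosphatase relative called, higher by 0.93 (adjusted p = 0.0411, edgeR), a call that 11 of 18 other settings gave. *MYC4* was lower in the sid2-1 line than in the eds1-2 line by a log2 change of −0.37 (adjusted p = 0.0286, edgeR), a call that 12 of 18 other settings gave, and *MYC5* was lower by −2.02 (adjusted p = 0.0011).

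**Figure D4:**
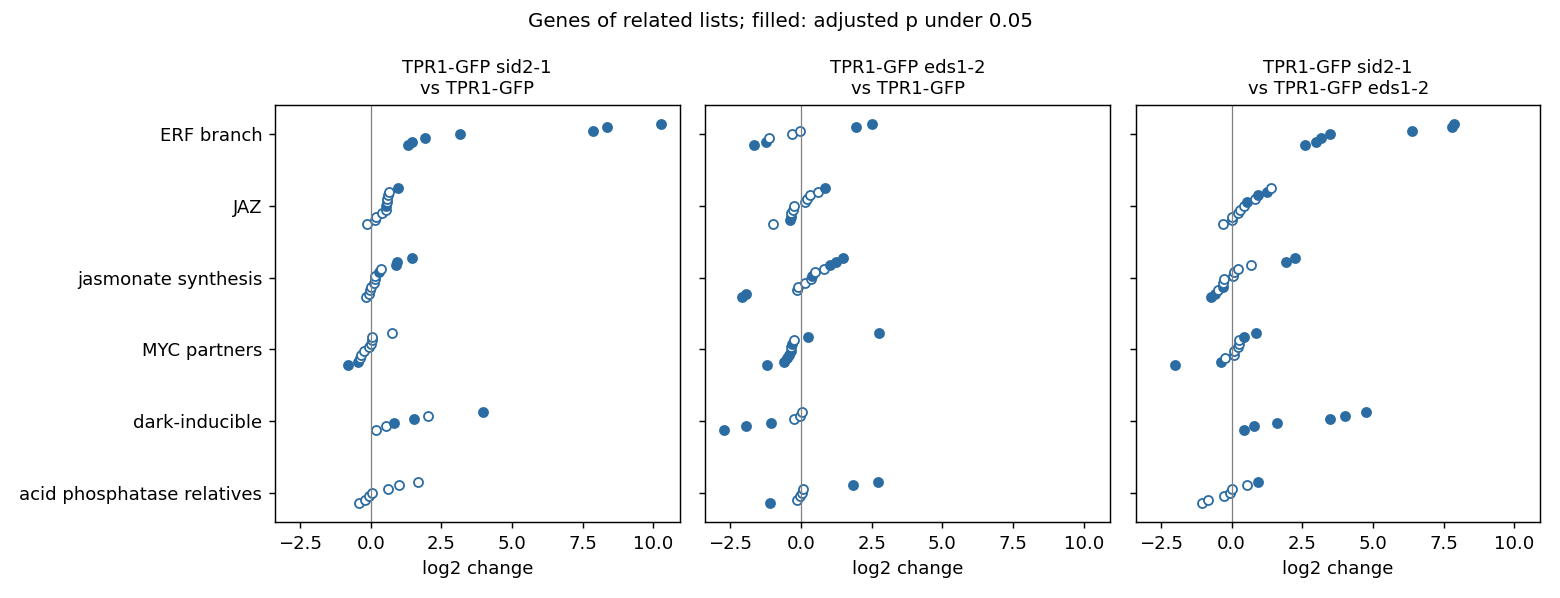
Log2 change of the genes of 6 related lists in the sid2-1 line and the eds1-2 line, each against TPR1-GFP, and in the sid2-1 line against the eds1-2 line. Each point is a gene, filled where its adjusted p is under 0.05. The 7 ERF branch genes all lie to the right of 0 in the left and right panels, with medians of 3.17 and 3.48.

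The genes most like each of the 7 were found by Pearson's r of log2 CPM over the 12 libraries, which share genotypes, so r mostly reflects differences between genotypes and is a description. *MYC2* was most like AT5G47610, *MAPKKK14* and *APO3*, at r of 0.826 to 0.836, the lowest values of the 7 genes. *VSP1* was most like AT1G14250, *4CL8* and AT5G51720, at 0.966 to 0.978, and *VSP2* was most like *FEY*, *MAPKKK17* and AT4G29690, at 0.958 to 0.965. *CORI3* was most like *RD2*, *ENDO4* and *AAE1*, at 0.917 to 0.938, and *CLH1* was most like *PGL5*, AT4G29700 and *PRX33*, at 0.955 to 0.957. *TAT3* was most like *CRK14*, *CYP71B23* and AT1G49000, at 0.976 to 0.981. *DIN11* was most like AT2G15880, *PDR6* and the defensin gene *PDF1.2c*, at 0.96 to 0.964. No member of the 7 was among the 3 genes most like another. Between members, r was 0.783 to 0.941 among *VSP1*, *VSP2*, *CORI3* and *CLH1*, and −0.745 to −0.526 for *TAT3* with these. It was 0.0141 to 0.503 for *MYC2* with the other members and 0.122 to 0.617 for *DIN11* with the other members.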

How the data were processed

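Leaf RNA of 4 genotypes was sequenced in 12 libraries, per the labels. The authors deposited a read count for each gene in each library, without pooling replicates, and their own log2 CPM, which follows from the counts by a constant offset. The authors also deposited, for 3 comparisons, fold changes (a ratio of TPR1-GFP over the other genotype), log2 changes and adjusted p-values (FDR), per the file headers. TopHat2, HTSeq, limma and TAIR10 are named in the submitters' processing notes, with versions and strand not given in the sources used here. Each deposited gene has 101 counts or more in all, so genes below that were not analysed here.

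The count model was fitted with edgeR 4.0.16 in R 4.3.3 (filterByExpr, TMM, robust quasi-likelihood fit to all 12 libraries, genotype as the only term), with Benjamini-Hochberg adjustment over the 18877 genes left. The SE was taken from each F statistic, as the absolute log2 change over its root. The model was also run on simulated counts in which few genes changed, in balanced directions, in the sid2-1 line only. That run does not check the scaling for comparisons in which many genes change. Library totals were 19628974 to 32018583 counts, and precision falls for genes of few counts, such as *VSP1* in TPR1-GFP. Replicates differed by 6.61 to 37.8 chi-square units per degree of freedom, so none was treated as a copy. Pairing by replicate number was read from the data, not the labels: 8 of 18 same-number pairs of deviations from the genotype means correlated above 0.1 (−0.333 to 0.356), and every pair did so in a single comparison, Col-0 with the sid2-1 line (0.172, 0.22 and 0.309). Of the 12 libraries, 7 correlated best with one of the same number. Alternatives were DESeq2 1.42.0, DESeq2 size factors, library totals alone, no filter, a replicate block, only the groups compared, each library left out, and the authors' deposited columns. The 7 genes, the 9 gene lists (MYC relatives and partners, JAZ, jasmonate synthesis, jasmonate turnover, NAC, ERF branch, acid phosphatase, aminotransferase and dark-inducible) and the marker lists were chosen with earlier results of these data known, including the *VSP1* rise in the eds1-2 line. Besides the 7 genes and their relatives, the text names from each list at most the 3 called genes with the largest change, and for each of the 7 the 3 genes with the highest r. Coordinates, coding identity (Biopython 1.88) and upstream windows came from TAIR10.1 by locus code, of which 18642 were found, and no coordinate was converted. Exact permutation tests used SciPy 1.17.1.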

Additional observations from a re-analysis of the deposited data

How the results depend on the processing

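In 726 recalculations of the 7 genes, a tested value kept its sign and call or an untested *DIN11* value moved by less than the spread. Beside these, 24 calls were lost, 9 were gained, 8 signs of tested values turned and 4 untested *DIN11* values moved by more than the spread. The untested *DIN11* value of TPR1-GFP against Col-0, 0.03, ran from −1.07 to 1.65. It turned negative in 4 of 19 settings, which are counted within the 726. Signs turned for *MYC2*, which was never called: −0.090 in the eds1-2 line against TPR1-GFP without eds1-2 replicate 2 (−0.090 to 0.44 with a library left out), −0.12 in TPR1-GFP against Col-0 without Col-0 replicate 1 (−0.12 to 0.26), and, for the sid2-1 line against the eds1-2 line, 0.060 with library totals alone, 0.056 with the replicate block and −0.28 to 0.25 with a library left out, positive without sid2-1 replicate 2 and without eds1-2 replicate 2 or 3. *VSP2* turned to 0.50 in TPR1-GFP against Col-0 without Col-0 replicate 3 (−1.53 to 0.50). Why these values moved was not tested. Genes called in the sid2-1 line against TPR1-GFP numbered 3179, and 1172 to 3643 with a library left out. In the eds1-2 line against Col-0 they numbered 3303, 1804 with only those groups, and 2103 to 3396 with a library left out. Of the 6 genes tested in the sid2-1 line against Col-0, 3 were called, 1 with only those groups, and 0 to 3 with a library left out. In the sid2-1 line against the eds1-2 line 3 were called, and 3 to 5 with a library left out. For the gene lists, an alternative chosen after seeing the data, 1390 counts of calls stayed within 1.5 times and 164 did not, and 279 gene calls were lost and 3825 held, with no sign turned.

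With library totals alone the median of all genes moved to 0.26 in TPR1-GFP against Col-0, to −0.20 in the eds1-2 line against TPR1-GFP and to 0.17 in the sid2-1 line against Col-0. The share of higher genes among those called was then 38.1% in the sid2-1 line against TPR1-GFP (57.6% with TMM), 32.6% in the eds1-2 line against TPR1-GFP (47.6%), 72.9% in TPR1-GFP against Col-0 (51.0%), 76.5% in the sid2-1 line against Col-0 (52.6%), 70.8% in the eds1-2 line against Col-0 (54.2%) and 70.0% in the sid2-1 line against the eds1-2 line (56.7%). Among the 7 genes that scaling changed no call and, beside the *MYC2* value above, no sign.

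With the replicate block the *TAT3* change in the sid2-1 line against Col-0 was 1.65 (adjusted p = 0.0645, edgeR) and the *CLH1* change in the sid2-1 line against the eds1-2 line was −0.46 (adjusted p = 0.0464), and no other call of the 7 genes changed. DESeq2 gave no adjusted p for *VSP2*.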
